A study of Homo sapiens with 6 samples.

Results

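The genes described here lie at the long-arm end of human chromosome 16, in band 16q24, from KIAA0513 on the centromere side to GAS8 near the end. They are 45 listed genes of the 15977 in the joined count table. Of these, 44 passed the filter on low counts that left 12679 genes for testing; DPEP1, a membrane dipeptidase, did not, with 9, 4 and 11 reads in WT, KO1 and KO2 of one library set and 9, 4 and 31 in the other. The list was proposed because neighbouring genes at this end were lower in KO2 than in WT, so the KO2 values below describe the choice and carry no test.

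The RNA came from HCT116, an established human colorectal carcinoma cell line, and was sequenced after poly(A) selection. KO1 and KO2 cells each carried a different guide RNA against MUC3A, a membrane-bound mucin gene on chromosome 7, delivered with Cas9 by lentiCRISPR v2 virus at a multiplicity of infection of 10 and followed by puromycin at 2 µg/mL for 72 h. The comparison cells (WT) have the genotype wild type and the treatment negative control in the labels, while the protocol names a scrambled virus, so whether they were infected and selected is not settled. Clone or pool, the make-up of each line is not stated in the labels. Each group has 1 library whose column name starts with HCT and 1 that starts with HCT116. The labels do not explain this prefix, so a KO library is compared below with the WT library of the same prefix. No label says that both libraries of a group were separate cultures, so the p-values rest on a spread between libraries that could be technical.

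Libraries held 13638724 to 17830282 counts. MUC3A itself stood at 52.7, 52.8 and 30.0 CPM (counts scaled to library size) in the HCT libraries of WT, KO1 and KO2 and at 25.1, 28.6 and 24.6 CPM in the HCT116 libraries, and an RNA level does not show whether the gene was edited. Of 12 colorectal epithelium markers 10 were in the table, with summed levels of 5881 to 14525 CPM led by keratins, while VIL1, CDX1 and GPA33 were each under 1 CPM in every library. Summed levels were 9.31 to 10.2 CPM in WT, 19.8 to 22.8 in KO1 and 6.79 to 13.3 in KO2 for 6 leukocyte markers. For 6 fibroblast markers the sums were 33.5 to 72.6 CPM over all libraries. For 5 markers of HEK293T, the line that packaged the virus, they were 12.4 and 22.3 CPM in WT, 9.88 and 20.4 in KO1, and 21.4 or more in KO2. CD68 led the leukocyte sum, at 4.99 to 19.8 CPM, and COL1A1 the fibroblast sum, at 32.5 to 71.1 CPM. PAX2 led the HEK293T sum, at 9.88 to 28.0 CPM. Every other marker of these lists in the table was at 1.90 CPM or less in each library. The part of such cells in the values below was not tested.

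Chromosome ends such as 16q24 are rich in short, GC-rich and broadly expressed genes that mostly do unrelated work. Genes in such a neighbourhood need not share a pathway, though some do, such as GINS2 and CDT1 in DNA replication. Neighbouring genes do share chromosomal copies, and some pairs share a promoter region read in both directions. In HCT116, published karyotypes describe a derivative chromosome that joins the end of 10q to 16q24. DNA copy number was not measured in the data used here.

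The guides are shown because one of them marks the group in which these genes were low.
KO1 guide: gaaggcaaacttggacgtcg
KO2 guide: ttctccacactccagagacc
Both matched MUC3A transcripts with 0 mismatches. In the transcripts of the 45 genes and the 37 promoter windows that could be matched, the nearest sites with an NGG PAM had 6 mismatches, at 1 site for the KO1 guide and at 8 sites for the KO2 guide, and 0 sites had 5 or fewer. Of those 8 sites, 1 lay in the promoter window of TCF25, the gene with the largest KO2 difference, and the others in transcripts. All mismatches of the TCF25 site lay on the side away from the PAM. Cutting at any of these sites was not tested. Introns and intergenic sequence were not analysed here.

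RefSeq promoter windows of 250 bases before the start (GRCh38.p14) were matched for 37 of the 45 genes. Those of the pair with the largest KO2 differences, PIEZO1 (chr16:88785221-88785470, minus strand) and TCF25 (chr16:89873342-89873591, plus strand), are shown first. CTU2 (chr16:88706253-88706502), TRAPPC2L (chr16:88856877-88857126) and SPATA33 (chr16:89657818-89658067), all on the plus strand, follow because each starts back to back with another listed gene. Capitals mark every motif found on either strand.
PIEZO1: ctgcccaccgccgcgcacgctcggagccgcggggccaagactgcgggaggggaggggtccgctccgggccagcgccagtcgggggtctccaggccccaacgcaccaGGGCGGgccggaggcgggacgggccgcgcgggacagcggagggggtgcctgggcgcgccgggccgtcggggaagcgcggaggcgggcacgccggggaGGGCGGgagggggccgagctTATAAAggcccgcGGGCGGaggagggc
TCF25: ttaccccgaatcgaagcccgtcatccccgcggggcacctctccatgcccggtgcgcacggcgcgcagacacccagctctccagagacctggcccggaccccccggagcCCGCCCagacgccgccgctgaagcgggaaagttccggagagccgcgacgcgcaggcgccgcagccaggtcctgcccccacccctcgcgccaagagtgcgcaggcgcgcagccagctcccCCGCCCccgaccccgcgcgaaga
CTU2: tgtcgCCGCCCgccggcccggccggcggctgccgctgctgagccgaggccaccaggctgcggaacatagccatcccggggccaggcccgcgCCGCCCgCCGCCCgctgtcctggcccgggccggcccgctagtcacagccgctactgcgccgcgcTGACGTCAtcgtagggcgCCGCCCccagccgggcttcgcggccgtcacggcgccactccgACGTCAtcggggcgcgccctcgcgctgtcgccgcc
TRAPPC2L: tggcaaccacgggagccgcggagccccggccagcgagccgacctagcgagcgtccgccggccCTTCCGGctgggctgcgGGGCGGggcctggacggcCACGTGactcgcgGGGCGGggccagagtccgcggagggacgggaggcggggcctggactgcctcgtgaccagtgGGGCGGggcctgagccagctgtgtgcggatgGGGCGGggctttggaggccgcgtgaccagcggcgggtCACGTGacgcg
SPATA33: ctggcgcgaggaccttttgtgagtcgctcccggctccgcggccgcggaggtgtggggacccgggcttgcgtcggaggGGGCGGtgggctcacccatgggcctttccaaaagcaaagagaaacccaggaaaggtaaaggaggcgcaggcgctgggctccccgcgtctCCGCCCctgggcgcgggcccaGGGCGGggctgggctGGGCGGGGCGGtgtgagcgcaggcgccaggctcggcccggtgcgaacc

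All 5 windows were GC-rich, from 73.6% in SPATA33 to 81.2% in PIEZO1. The median GC content was 74.8% over the 37 windows and 58.0% over all 27305 promoter windows of the same length. A GC box (GGGCGG) was found in 34 of the 37, or 91.9%, against 42.3% of all windows. The ETS letters CCGGAAG were in 24.3% against 8.82%, and the cAMP response letters TGACGT in 16.2% against 7.42%, with 3 matches in CTU2, where the overlapping palindrome counts on both strands. CCAAT was in 18.9% against 33.0%, and TATAAA only in the PIEZO1 window (2.70% against 11.1%). GCATGCG (NRF1), ATGGCGG (YY1) and CACGTG (E-box) were each in 10.8%, against 3.57%, 2.83% and 6.49%. These matches describe letters in a window. Neighbouring windows overlap, by 94 bases in CTU2 and RNF166, 179 in TRAPPC2L and GALNS, and 141 in SPATA33 and CHMP1A, so matches are partly shared.

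In KO2 nearly the whole stretch was lower than in WT, in both library sets. The median log2 fold change of the 44 tested genes was -0.59 in the fit across all libraries, -0.48 in the HCT pair and -0.63 in the HCT116 pair, and the middle of the list spanned -0.76 to -0.25 between quartiles (SD over genes 0.34). The same median over all 12679 tested genes was 0.00. In bulk RNA, fewer cells with a given level and less RNA per cell cannot be told apart. The fit put 42 of the 44 below 0. A value below WT in both pairs was found for 35 of the 44, where 29.4% of all tested genes were below WT in both, and 31 of these were also below KO1 in both pairs. By edgeR's quasi-likelihood fit with the prefix as a term, 23 of the 44 passed an adjusted p of 0.05 as lower and 0 as higher, where 2.47% of all tested genes were called lower and 2.15% higher. The list was chosen from this comparison, so nothing is read from that count. It was 6 when the HCT116 library of WT was left out, and 0 when the prefix was not a term of the fit (5 lower and 0 higher at an unadjusted p under 0.05). DESeq2 with the prefix also called 23.

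The counts themselves show the same. The 45 genes took 0.638% of all counts in WT, 0.615% in KO1 and 0.405% in KO2 of the HCT libraries. In the HCT116 libraries they took 0.955%, 0.850% and 0.609%. Without RPL13, the most abundant of them, the shares were 0.377%, 0.361% and 0.267% and then 0.604%, 0.542% and 0.381%. In each set KO2 had the smallest share, and KO1 lay nearer to WT than to KO2.

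**Figure D1:**
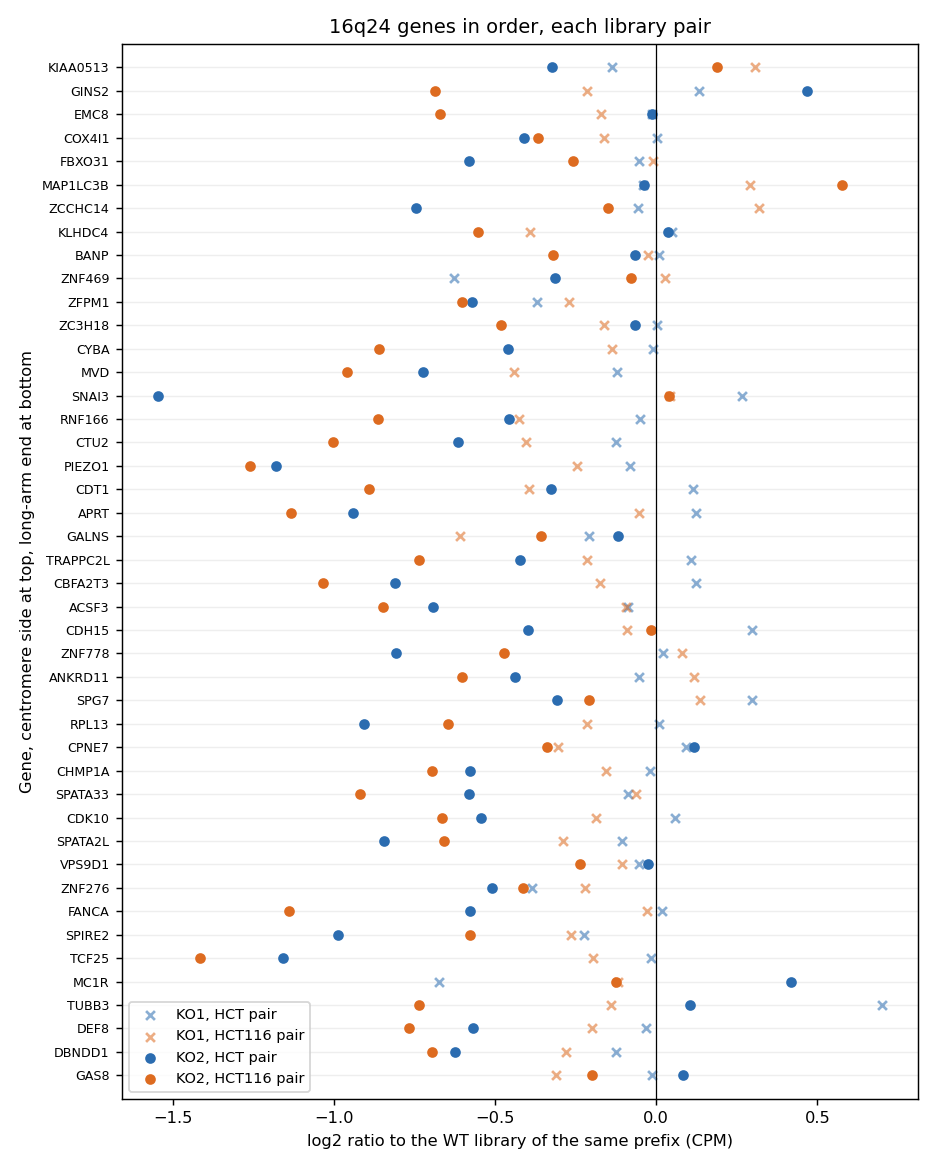
Each row is 1 of the 44 tested genes in chromosomal order, and the x axis is the log2 ratio of CPM to the WT library of the same prefix; circles are KO2, crosses KO1, blue the HCT pair and orange the HCT116 pair. KO2 circles lie left of 0 in both pairs for 35 genes, and KO1 crosses lie closer to 0, with medians of -0.02 in the HCT pair and -0.17 in the HCT116 pair.

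Along the gene order, the stretch of lower values had a blurred edge on its centromere side, and the last listed gene, GAS8, was near 0. A 2-level step over the 285 tested genes of 16q, with the split chosen to leave the smallest squared deviation, fell between WFDC1 and ATP2C2 for the KO2 values. That step moved from a mean of 0.20 to a mean of -0.47 and left 62 genes on the far side, all 44 listed ones among them. The flanking genes were DNAAF1, TAF1C and WFDC1 before the step and ATP2C2, TLDC1 and COTL1 after it. Library pairs placed it differently, between SYCE1L and NUDT7 in the HCT pair (84 genes after, 0.23 to -0.36) and between FAM92B and GSE1 in the HCT116 pair (53 genes after, 0.19 to -0.57). With a 3-level step, chosen after the values were seen, the edges lay between MLKL and FA2H and between MTHFSD and FOXL1, with means of 0.24, -0.10 and -0.54 and 46 genes in the last level. The HCT116 pair gave means of 0.24, -0.05 and -0.65, with edges between LDHD and ZFP1 and between ZCCHC14 and JPH3. The HCT pair had no intermediate level before the fall. Its means were -0.12, 0.28 and -0.36, with edges between RBL2 and AKTIP and between SYCE1L and NUDT7. The position is therefore known to a range of genes and not to a gene.

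**Figure D2:**
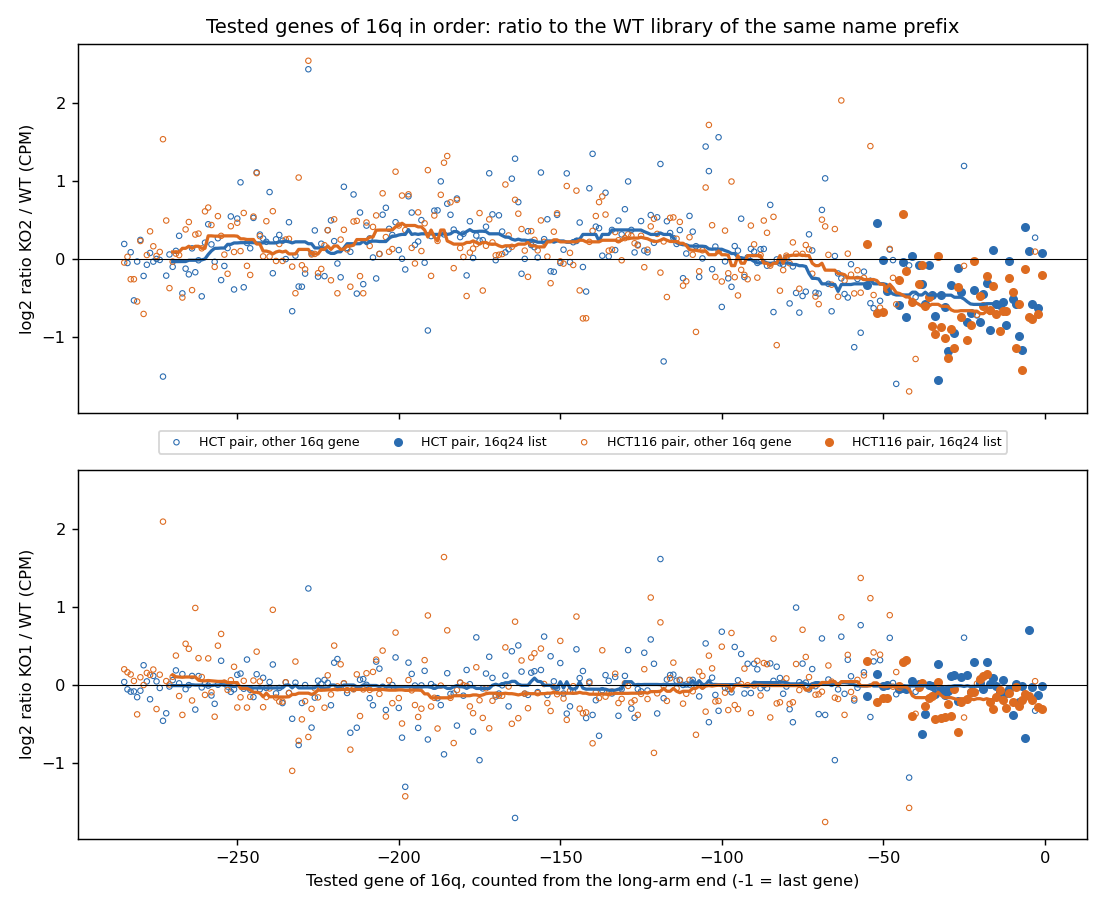
Each point is a tested gene of 16q in order, counted from the long-arm end on the x axis; the y axis is the log2 CPM ratio to the WT library of the same prefix for KO2 (top) and KO1 (bottom), filled points are the listed genes, and lines are running medians of 31 genes in each pair. The KO2 lines lie above 0 over most of the arm and below 0 at its end. The KO1 line of the HCT116 pair has its lowest value, -0.19, at that end, and the KO1 line of the HCT pair goes no lower than -0.07 anywhere on the arm.

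Within the list the difference was uneven. The 12 tested genes from KIAA0513 to ZC3H18 had a median KO2 log2 fold change of -0.27, with 8 of 12 below WT in both pairs and 1, ZFPM1, called lower. From CYBA to GAS8 the median over 32 genes was -0.66 (-0.57 in the HCT pair and -0.70 in the HCT116 pair), with 27 of 32 below WT in both pairs and 22 called lower. This boundary was chosen after the values were seen, and the list was chosen from the same comparison, so nothing is read from these counts. Of all tested genes, 29.4% were below WT in both pairs and 2.47% were called lower. Splitting the longer stretch again gave -0.67 for the 15 genes from CYBA to ANKRD11 and -0.64 for the 17 from SPG7 to GAS8. Gene by gene, the KO2 ratios of the pairs correlated across the 44 genes with Pearson's r of 0.37 and Spearman's rho of 0.44. The pairs share no library, and genes are not independent replicates. The median absolute difference between the pairs' ratios was 0.30.

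Neighbouring regions had other values. The 44 tested genes just on the centromere side of the list had a median of -0.13, with 1 called lower (KLHL36). All 241 other tested genes of 16q had a median of 0.14, with 4 called lower and 12 higher, and the 317 of 16p a median of -0.06. Another 11 tested genes lie between KIAA0513 and GAS8 without being on the list, and their median was -0.55. Of these, 3 were called lower: GSE1, SLC22A31 and SLC7A5, which encodes a large neutral amino acid transporter. SLC7A5 stood at 537, 505 and 383 CPM in WT, KO1 and KO2 of the HCT set and at 1433, 1109.6 and 591 CPM in the HCT116 set. The 175 tested genes of 10q from HPS1 to the end, the arm that published karyotypes join to 16q24, had a median of 0.01.

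Among running medians of 31 neighbouring tested genes over the genome, the lowest in KO2 against WT was -0.67, centred on ANKRD11 in this list. The lowest elsewhere were -0.23 on chromosome 17 and -0.21 on chromosomes 1, 6 and 19. The list was chosen for low KO2 values, so its rank here describes that choice, in each pair too. In the HCT pair the lowest was -0.58, centred on CDH15, and the lowest elsewhere -0.34, on chromosome 4. In the HCT116 pair the lowest was -0.70, centred on ZNF778, and the lowest elsewhere -0.34, on chromosome 17. On the higher side chromosome 16 reached 0.40 around DDX19B, next to 0.45 on chromosome 19 and 0.35 on chromosome 6.

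**Figure D3:**
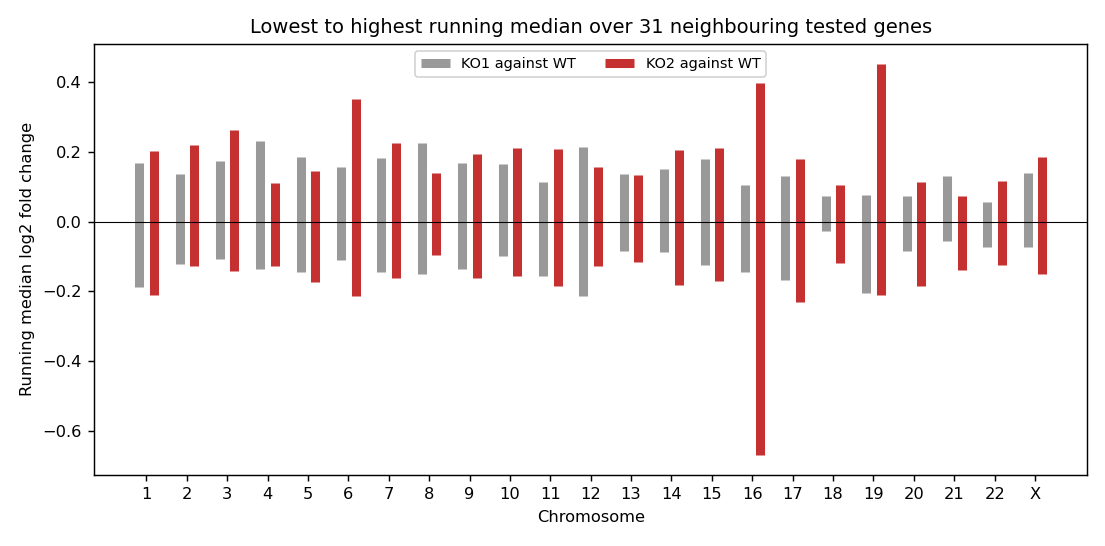
Bars span the lowest to the highest running median log2 fold change (y axis) of 31 neighbouring tested genes on each chromosome (x axis), grey for KO1 and red for KO2 against WT. The KO2 bar of chromosome 16 reaches -0.67 and the next lowest, chromosome 17, -0.23.

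The individual genes are given by what their products do. Among genes of translation and RNA, TCF25, a component of the ribosome-associated quality control machinery, had the largest difference. Its levels were 236, 233 and 106 CPM in WT, KO1 and KO2 of the HCT set and 456, 398 and 171 CPM in the HCT116 set. Both KO2 libraries lay below the WT and KO1 libraries of both sets, and the KO2 fold change was -1.29 ± 0.12 (log2, SE), or 2.44-fold lower. RPL13, a protein of the large ribosomal subunit, stood at 2430.2, 2443 and 1296 CPM and then at 3773, 3250.1 and 2409 CPM. KO2 was lowest in each set, at -0.77 ± 0.16, but the KO2 library of the HCT116 set was close to the WT library of the HCT set. RPL13 has processed copies elsewhere in the genome, so its counts are uncertain. CTU2, which with CTU1 thiolates the wobble uridine of some transfer RNAs, measured 47.9, 44.0 and 31.3 CPM and 141, 107 and 70.4 CPM, a KO2 difference of -0.82 ± 0.14. ZC3H18, a nuclear RNA processing factor, differed by -0.28 ± 0.14.

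Genes of DNA replication and repair did not move alike. FANCA, a core subunit of the Fanconi anaemia complex that handles crosslinked DNA, stood at 69.0, 69.9 and 46.1 CPM in the HCT set and at 109, 107 and 49.5 CPM in the HCT116 set. WT and KO1 were nearly equal in each set, and KO2 was lower by a log2 value of -0.85 ± 0.15. CDT1, which loads the MCM helicase at replication origins, measured 101, 109.5 and 80.7 CPM and 393, 299.5 and 212 CPM, for -0.62 ± 0.15 in KO2. GINS2, a subunit of the active replicative helicase, gave 37.3, 40.9 and 51.6 CPM in one set and 135, 116 and 83.8 CPM in the other. Its KO2 library was thus the highest of the HCT set and the lowest of the HCT116 set, and the fitted value was -0.11 ± 0.22.

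Among metabolic genes, APRT, which salvages adenine into AMP, stood at 103, 112 and 53.6 CPM in the HCT set and at 325, 313 and 148 CPM in the HCT116 set. KO2 was about 2.06-fold lower than WT (-1.04 ± 0.12), with KO1 beside WT. MVD, an enzyme of the mevalonate pathway to sterols, measured 92.0, 84.5 and 55.7 CPM and 222, 163 and 114 CPM. Here KO1 lay between WT and KO2 in each set, and the KO2 value was -0.85 ± 0.13. ACSF3, the mitochondrial malonyl-CoA synthetase, differed by -0.77 ± 0.13. CYBA, the small membrane subunit of NADPH oxidases, differed by -0.66 ± 0.13. COX4I1, a cytochrome c oxidase subunit, had a smaller value of -0.39 ± 0.12. SPG7, a subunit of a mitochondrial inner membrane protease, and GALNS, a lysosomal sulfatase, were at -0.26 ± 0.12 and -0.24 ± 0.15.

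Membrane and trafficking genes ranged from one of the lowest values of the list to its highest. PIEZO1, a mechanically gated cation channel, stood at 287, 271 and 127 CPM in the HCT set and at 441, 372 and 184 CPM in the HCT116 set. Both KO2 libraries were below all WT and KO1 libraries, at -1.22 ± 0.12 or 2.33-fold lower. MAP1LC3B, whose product coats autophagosome membranes, gave 112, 109 and 109 CPM and then 66.6, 81.5 and 99.5 CPM, the highest fitted value of the list at 0.26 ± 0.15. It overlaps FBXO31, on the opposite strand, over 8148 bases of the gene models, and no source used here says whether reads were counted by strand. CHMP1A, an ESCRT-III subunit, differed by -0.64 ± 0.12. TRAPPC2L, of the TRAPP vesicle tethering complex, differed by -0.59 ± 0.14. EMC8, of the complex that inserts proteins into the endoplasmic reticulum membrane, differed by -0.34 ± 0.16, all of it in the HCT116 pair (-0.67 against -0.01).

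Cytoskeletal and surface genes were mixed. SPIRE2, an actin nucleator, measured 40.9, 35.0 and 20.6 CPM and 42.9, 35.6 and 28.7 CPM, for -0.78 ± 0.16 in KO2. CPNE7, a calcium-dependent membrane-binding copine, gave -0.12 ± 0.14, and GAS8, a part of the motile cilium's dynein regulatory complex and the last gene of the list, -0.06 ± 0.15. CDH15, a muscle cadherin, TUBB3, a neuronal beta-tubulin, and MC1R, the melanocortin receptor of pigment cells, were at 2.67 to 10.6 CPM in all libraries and gave -0.20 ± 0.25, -0.35 ± 0.34 and 0.17 ± 0.29. The gene models of MC1R and TCF25 overlap by 1509 bases on the same strand, where a read could belong to either.

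Regulators of transcription and signalling were mostly lower. CBFA2T3, a transcriptional corepressor, stood at 31.4, 34.2 and 17.8 CPM in the HCT set and at 34.0, 30.1 and 16.5 CPM in the HCT116 set. WT and KO1 libraries thus lay between 30.1 and 34.2 CPM in both sets, and the KO2 libraries at 17.8 and 16.5 CPM did not overlap them (-0.93 ± 0.16). ANKRD11, a chromatin regulator, gave -0.52 ± 0.13, ZFPM1, a cofactor of GATA factors, -0.59 ± 0.14, and CDK10, a cyclin-dependent kinase, -0.61 ± 0.12. The zinc finger genes ZNF778, ZNF276 and ZNF469 gave -0.65 ± 0.16, -0.46 ± 0.14 and -0.21 ± 0.19, and BANP, which binds unmethylated CpG-rich motifs, -0.19 ± 0.16. SNAI3, a repressor of the Snail family, was at 9.11, 11.0 and 3.03 CPM in the HCT set but at 3.22, 3.32 and 3.32 CPM in the HCT116 set. Its KO2 value of -0.82 ± 0.41 thus came from 1 pair.

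Of the ubiquitin ligase genes, RNF166 gave -0.67 ± 0.15 and FBXO31, an F-box protein, -0.42 ± 0.13. The rest of the list is named with its KO2 values only. SPATA33 and SPATA2L stood at -0.76 ± 0.18 and -0.75 ± 0.14, DEF8 and DBNDD1 at -0.67 ± 0.12 and -0.66 ± 0.12, and ZCCHC14 at -0.46 ± 0.15. KLHDC4, VPS9D1 and KIAA0513 were nearer to 0, at -0.27 ± 0.15, -0.13 ± 0.14 and -0.09 ± 0.17.

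Genes that start back to back did not always have like values. RNF166 and CTU2, whose starts lie 42 bases apart in opposite directions, had KO2 values of -0.67 and -0.82. CHMP1A and SPATA33, 43 bases apart, had -0.64 and -0.76, and EMC8 and COX4I1, 975 bases apart, -0.34 and -0.39. The 4 other such pairs differed more: ANKRD11 and SPG7 (158 bases; -0.52 and -0.26), DBNDD1 and GAS8 (499 bases; -0.66 and -0.06), VPS9D1 and ZNF276 (586 bases; -0.13 and -0.46) and GALNS and TRAPPC2L (750 bases; -0.24 and -0.59). Of these 7 pairs, 4 overlap in the gene models by 500 to 976 bases (EMC8 and COX4I1, GALNS and TRAPPC2L, VPS9D1 and ZNF276, DBNDD1 and GAS8) and CHMP1A and SPATA33 by 44. ZNF276 overlaps FANCA by 3355 bases. Reads from such stretches cannot be told apart unless they were counted by strand.

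In KO1 the same genes lay closer to WT. This comparison was not used to choose the list, though it shares the WT libraries with the one that was. The median of the 44 genes in KO1 against WT was -0.09 (-0.02 in the HCT pair and -0.17 in the HCT116 pair), with values from -0.41 to 0.27. By edgeR 0 of the 44 passed an adjusted p of 0.05, where 1.03% of all tested genes were called, and DESeq2 also called 0. At an unadjusted p under 0.05 edgeR gave 3, GALNS, ZFPM1 and MVD, all lower, and DESeq2 gave 1. GALNS, the lowest, stood at 37.0 CPM in WT and 31.9 in KO1 of the HCT set and at 54.8 and 35.9 CPM in the HCT116 set, for -0.41 ± 0.15 (edgeR adjusted p = 0.370). It passed when either KO2 library was left out of the fit. In both pairs 21 of the 44 were below WT, where 30.1% of all tested genes were. A 2-level step over 16q in the KO1 values fell inside the list, between ZCCHC14 and JPH3, with 37 of the 44 after it and means of -0.01 and -0.15. The HCT116 pair alone placed it at the same genes, with means of 0.01 and -0.22. The HCT pair alone placed it elsewhere, between PSMB10 and LCAT, with means of -0.07 and 0.02. The search returns a split for any values, so a split alone is no result. In the HCT116 pair the list's KO1 median was -0.17. Other tested genes within the list's middle range of GC content had -0.10 in that pair. In the fit, the lowest KO1 running median of chromosome 16 was -0.15, centred on ZNF646 outside the list. Chromosomes 12, 19 and 1 reached -0.21, -0.20 and -0.19. Whether KO1 differs at 16q24 in particular was not tested.

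Set against KO1 instead of WT, the KO2 values of the 44 genes had a median of -0.50. Because this comparison shares the KO2 libraries, it is a description only. As lower in KO2 than KO1, 21 of the 44 passed and as higher 0 did, where 5.39% and 4.27% of all tested genes were called. TCF25, APRT and PIEZO1 were at -1.18, -1.07 and -1.06, and MVD, with its lower KO1 level, at -0.56.

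Genes whose products work with those of 16q24 but are coded elsewhere were tested in the same fit. Their values did not enter the rule for the list, but the libraries are the same and the partners were chosen with earlier results of these data known. Of 178 such partners in 13 complexes or pathways, 165 were tested. In KO2 against WT 1 was called lower and 4 higher by edgeR, where 2.47% and 2.15% of all tested genes were. The partners' median was -0.04. The 5 were EMC10 at -0.47 ± 0.12 (adjusted p = 0.047), EMC2 at 0.63 ± 0.14 (adjusted p = 0.032), the autophagy gene GABARAPL1 at 0.79 ± 0.18 (adjusted p = 0.032), the ESCRT-III gene CHMP3 at 0.71 ± 0.14 (adjusted p = 0.016) and ELP3, the catalytic subunit of Elongator, at 1.02 ± 0.12 (adjusted p = 0.001). Without the prefix term edgeR called 0 in either direction, with 1 lower and 2 higher at an unadjusted p under 0.05. Left out in turn, either WT library gave 0 lower and 2 higher, either KO1 library 0 lower, and the HCT and HCT116 libraries of KO2 14 and 6 lower and 10 and 17 higher. In KO1 against WT 0 of the 165 were called by edgeR or DESeq2, and edgeR gave 3 lower and 2 higher at an unadjusted p under 0.05.

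By complex, the median of most lists lay nearer to 0 than the 16q24 gene it belongs to. The 16q24 genes were chosen for low KO2 values and the partners were not, so this describes that choice in part. The 43 other tested large ribosomal subunit proteins had a median of -0.05 beside -0.77 for RPL13, and RPL13A was at -0.04 ± 0.15. Their values ran from -0.95, below RPL13, to 0.35. By edgeR 0 of the 43 were called (3 lower and 1 higher at an unadjusted p under 0.05). In the Fanconi pathway 15 partners had a median of -0.19 beside -0.85 for FANCA, with FANCD2 at -0.19 ± 0.14, and 0 called (1 lower unadjusted). For replication 19 partners of CDT1 and GINS2 had a median of -0.02, with 0 called (0 unadjusted). Their values ran from -0.27 ± 0.15 in MCM7 to 0.24. GINS1, GINS3 and GINS4 were at -0.19 ± 0.14, 0.12 ± 0.21 and -0.06 ± 0.16. These fitted values join pairs that differed. Most of the 19 partners lay above WT in the HCT pair and below it in the HCT116 pair, as GINS2 did. GINS3 was at 0.50 and -0.27 and GINS4 at 0.17 and -0.30, while GINS1 was below WT in both, at -0.05 and -0.34. The difference between the pairs was not tested. The 12 mevalonate and sterol enzymes were all below 0, with a median of -0.22 beside -0.85 for MVD, and 0 called (2 lower unadjusted). In KO1 against WT the median of these 12 was close to that, at -0.18, beside -0.29 for MVD.

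The 8 other genes of purine salvage had a median of 0.01, with HPRT1, which salvages hypoxanthine, at 0.09 ± 0.16, and 0 called (1 lower and 2 higher unadjusted). CTU1, which forms 1 enzyme with CTU2, was at -0.42 ± 0.17 (edgeR adjusted p = 0.198), and CHMP1B, the close relative of CHMP1A, at 0.13 ± 0.22. The cytochrome c oxidase, TRAPP, mitochondrial protease and NADPH oxidase lists also held 0 called genes by edgeR, with medians of -0.06, 0.09, -0.26 and -0.04. Beside them COX4I1, TRAPPC2L, SPG7 and CYBA were at -0.39, -0.59, -0.26 and -0.66, so SPG7 lay at the median of its list. At an unadjusted p under 0.05 these lists held 1, 1 and 2 lower and then 1 higher. DESeq2 called 1 partner lower and 4 higher over all lists. Differences between a 16q24 gene and its partners were not tested.

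**Figure D4:**
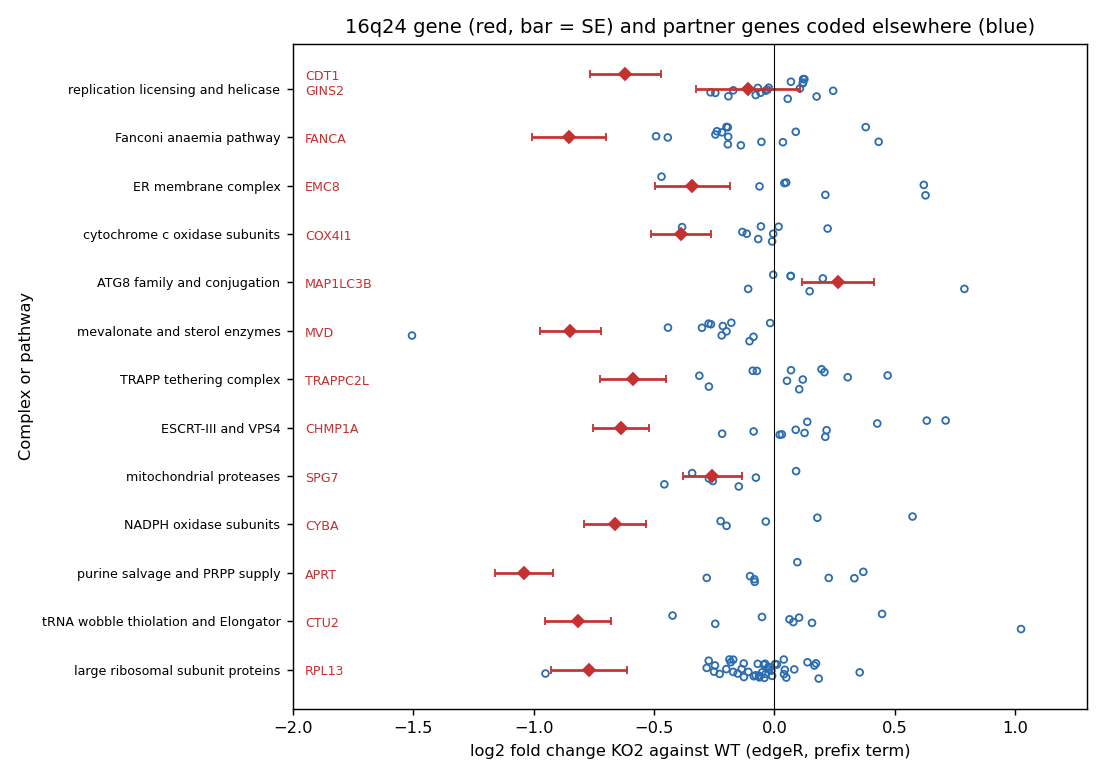
The x axis is the log2 fold change of KO2 against WT and each row is a complex or pathway; red diamonds with SE bars are the 16q24 genes named in red, and open blue circles their tested partners coded elsewhere. RPL13, FANCA, APRT and CTU2 lie left of most of their partners, and 5 of the 165 partners were called. The 16q24 genes were chosen for low KO2 values, so their place describes that choice in part.

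The library sets differed far more than the groups did, also at 16q24. By edgeR 38 of the 44 genes differed between the HCT116 and HCT libraries at an adjusted p of 0.05, where 63.9% of all tested genes did. Of these, 32 were higher in the HCT116 set and 6 lower, where 31.8% and 32.1% of all tested genes were, or 4036 and 4069 genes. With total counts as the only scaling those became 3119 and 5005 genes, and the median of all tested genes moved from -0.02 to -0.20. The list's median was 0.72 on the log2 scale, and 0.86, 0.63 and 0.62 within WT, KO1 and KO2. All 3 groups had the higher value in the HCT116 set for 35 genes and the lower for 5. CYBA stood highest, at 101, 101 and 73.8 CPM against 353, 321 and 194 CPM (1.62 ± 0.11, adjusted p = 3.8e-06), then CDT1 (1.60 ± 0.12, adjusted p = 4.9e-06), APRT (1.53 ± 0.10, adjusted p = 3.2e-06) and GINS2 (1.35 ± 0.18, adjusted p = 6.5e-05). The 6 lower genes were SNAI3 at -1.08, KIAA0513 at -0.86, ZCCHC14 at -0.74, ZNF469 at -0.49, MAP1LC3B at -0.43 and ZNF778 at -0.34.

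Base composition moved with this difference. The listed genes' transcripts had a median GC content of 59.7%, against 49.3% over all tested genes. The 2376 other tested genes within the list's middle range of GC, 56.7% to 62.9%, had a median of 0.49 between the sets, against -0.03 in KO2 and -0.05 in KO1 against WT. After a smooth trend over GC was subtracted, the list's median between the sets was 0.22, while the KO2 median was -0.52 and the KO1 median -0.05. The part of base composition in these differences was not tested further.

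**Figure D5:**
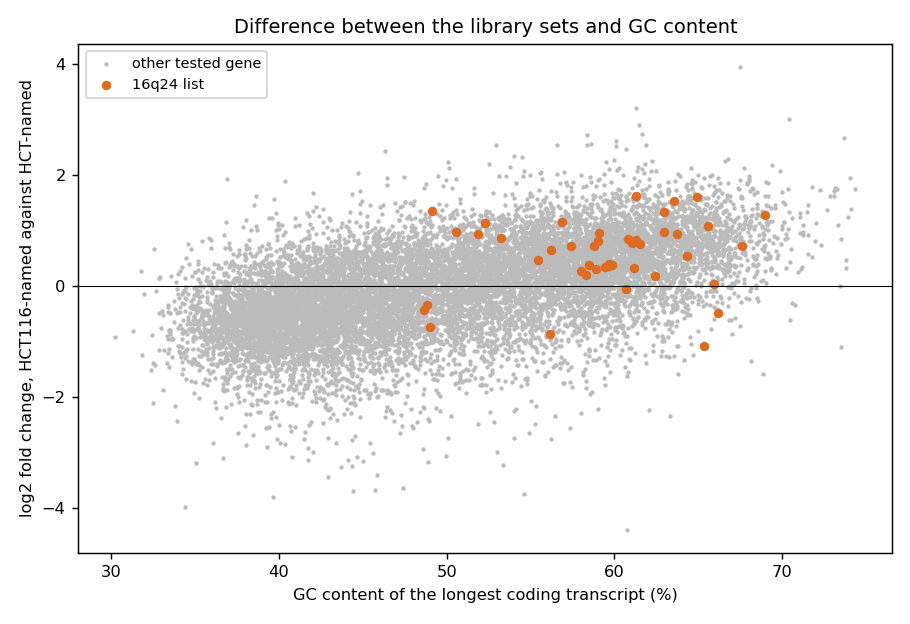
The x axis is the GC content of each gene's longest coding transcript in percent and the y axis its log2 fold change between HCT116-named and HCT-named libraries; grey points are other tested genes and orange points the 44 listed genes. Grey points at high GC content lie mostly above 0, and most orange points lie among them.

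Outside 16q24, the tested genes most like the list's mean level over the 6 libraries, after centring within each set, were RNF26, FAM229B, HSBP1, YRDC and PLTP, with Pearson's r from 0.996 to 0.999. Of them HSBP1 lies on chromosome 16 too, among the 44 tested genes just on the centromere side of the list. Their KO2 values were -0.44, -0.23, -0.45, -0.57 and -0.49. They were picked for this likeness out of all tested genes, and 6 libraries centred within sets leave few independent values for such an r.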

How the data were processed

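Gene-level read counts were used as the authors deposited them, before normalization, per the file headers. Tools listed in the submitters' processing notes, with no role, are STAR, HTSeq 0.6.0 and DESeq2, beside the build hg18. Strand use is not stated there. The KO1 and KO2 tables were joined on symbol (15284 genes shared, 264 and 429 in 1 only, their missing counts set to 0); WT columns were identical in both. Another 40 per-sample columns, such as the authors' FPKM, were not used. Column names give group and prefix, not the labels' replicate number. Deviations from the group means correlated between groups by prefix at 0.867 (WT, KO1), 0.815 (WT, KO2) and 0.783 (KO1, KO2), so the prefix was used as a replicate block.

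Counts were fitted with edgeR 4.0.16 in R 4.3.3: TMM, filterByExpr (minimum count 10), glmQLFit with group and prefix on all 6 libraries, residual df 2, Benjamini-Hochberg over 12679 genes at 0.05. Library sizes behind CPM are TMM-scaled, except for the cell type markers, whose CPM use total counts. Log2 ratios use a prior count of 2. SE is the absolute log2 fold change over the square root of F. DESeq2 1.42.0, other scalings, no filter, no prefix term and each library left out were alternatives. Gene order, GC and overlaps come from GENCODE 29 on GRCh38, whose coordinates were not used with the counts. The position of the step without the filter is not reported here. The fit and the step search were tested on simulated data. The listed genes, partner lists and markers were chosen with earlier results of these data known. Named partners are called genes (at most 3 a list) and partners close in name. FANCD2 and MCM7, which has the lowest value of the replication list, were named outside this rule.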

Additional observations from a re-analysis of the deposited data

Results flagged for a closer look

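Both library pairs moved in opposite directions for GINS2 and CPNE7, each beyond counting error (95% exact Clopper-Pearson intervals, which cover counting error only). For GINS2, a subunit of the replicative helicase, the KO2 to WT log2 ratio was 0.47 (0.32 to 0.62) in the HCT pair and -0.69 (-0.80 to -0.58) in the HCT116 pair. For CPNE7 it was 0.12 (0.04 to 0.20) and -0.34 (-0.40 to -0.28). With 1 library of each group in a pair, the difference between the pairs was not tested. GINS2 was also 1 of the genes with the largest difference between the library sets, at 1.35 on the log2 scale. Most of the 19 replication partners of GINS2 and CDT1 also lay above WT in the HCT pair and below it in the HCT116 pair.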

How the results depend on the processing

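Median KO2 values of the list stayed between -0.62 and -0.52 over the scalings, the filter, DESeq2, the fit without the prefix term and the GC correction, and the number called lower was 21 to 23 except without the prefix term. Without that replicate block edgeR called 0 of the list and 0 lower and 0 higher partners, and over all genes 0 in place of 586 in KO2 and 0 in place of 130 in KO1; its biological coefficient of variation was 0.383 in place of 0.118. With total counts as scaling the median between the sets was 0.55 and 0 partners were called lower. Without the filter 7 partners were called higher; over all genes that fit called 938 in KO2 and 312 in KO1, and DESeq2 205 in KO1. The GC correction, chosen after the data were seen, gave 0.22 between the sets. The median of the centromeric neighbours was -0.15 without the prefix term and -0.16 with RLE factors and with DESeq2.

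Leaving out each library in turn gave ranges of -0.60 to -0.51 for the KO2 median, 6 to 28 for the number called lower, -0.16 to -0.02 for the KO1 median, 0 to 1 for KO1 calls, -0.56 to -0.38 for the KO2 to KO1 median, 0.64 to 0.80 and 30 to 40 for the median and calls between the sets, 0 to 14 and 2 to 17 for partners called lower and higher, 55 to 88 for the genes after the edge and -0.15 to -0.051 for the centromeric median. The 6 came without the HCT116 library of WT; the 14 without the HCT library of KO2, the 17 without the HCT116 library of KO2. The single KO1 call was GALNS, without either KO2 library. Over all genes, KO2 calls were 318 and 388 without the HCT116 and HCT libraries of WT and 2171 and 1659 without those of KO2. For KO1 they were 901 and 845 when the KO2 library of the HCT or the HCT116 set was left out, and 215, 78, 86 and 69 without the HCT or HCT116 library of WT and the HCT or HCT116 library of KO1. Between KO2 and KO1 edgeR called 1225 genes, 0 without the prefix term, 392 or 733 when KO1 lost its HCT or its HCT116 library, and 1923 or 3203 when KO2 did. These fits leave 1 library in 1 group, assumed to vary like the others, and the cause of the changes was not tested. With 2 libraries a group, low levels such as those of DPEP1, TUBB3 and MC1R limit what could be detected.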
